A study of Homo sapiens with 8 samples.

Results

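The BCL2 family decides whether a stressed cell commits to death through its mitochondria. Effector members open the outer mitochondrial membrane and release cytochrome c, pro-survival members hold the effectors in check, and BH3-only members carry the death signal by occupying the groove of the pro-survival proteins or by engaging the effectors directly. Cisplatin crosslinks DNA, and the killing of squamous carcinoma cells by such damage runs largely through this family. The 10 genes described here were taken by symbol and not by any measured value. BCL2, BCL2L1 (which encodes BCL-XL) and MCL1 are pro-survival members, BAK1 and BOK are effectors, and BID, BCL2L11 (which encodes BIM), BAD and BIK are BH3-only members. BCL2L12 is an atypical, proline-rich member. All 10 were measured among 35113 genes, and all 10 were among the 15221 genes with enough reads to be tested.

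Messenger RNA was sequenced from HPV− parental cells (UPCISCC89, group SCC89), an HPV− cisplatin resistant clone of that line (SCC411), HPV+ parental cells (UDSCC2, group SCC2) and an HPV+ cisplatin resistant clone (SCC35), with 2 libraries per group and 8 in all. UPCISCC89 and UDSCC2 are established lines from squamous tumours of the head and neck. Parental cells were not selected in cisplatin, whereas resistant cells went through long-term culture with rising doses, higher for the HPV+ than for the HPV− line, and then grew without the drug after a single cell was picked. Each resistant group is therefore 1 clone, so selection and clonal origin cannot be told apart, and with 1 line per HPV status neither can HPV and cell line. Whether the libraries of a group stem from separate cultures is not stated, so the p-values reflect only how far these samples vary, and that variation may be technical.

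Libraries held 20250246 to 27341284 read pairs. Levels across libraries are given as CPM, read pairs scaled to library size and composition. Levels between genes are given as TPM, which corrects for transcript length and depth. TPM was used as deposited, so it carries no scaling for composition where libraries are compared by it. The log2 CPM of the 2 libraries of a group correlated at 0.975 to 0.988 (Pearson's r across genes, which are not independent replicates). All 10 squamous epithelial markers reached 1 CPM in every library. Their summed level was 23576 to 24810 CPM in HPV− parental cells and 5292 to 7136 CPM in the other groups. No endothelial marker reached 1 CPM. The simple epithelial list summed to 524 to 639 CPM in HPV+ parental and 1297 to 1416 CPM in HPV+ resistant cells, and to 748 to 1010 CPM in HPV− cells. The leukocyte list, mostly CD68, summed to 155 to 162 CPM in HPV− parental, 53.0 to 79.3 CPM in HPV− resistant, 14.9 to 17 CPM in HPV+ parental and 9.60 to 11.9 CPM in HPV+ resistant cells, and PTPRC averaged at most 0.0902 CPM. The fibroblast list summed to 1451 to 3389 CPM in HPV+ cells and 4.70 to 12.3 CPM in HPV− cells, and COL3A1 made up most of it, with a mean of 2846 CPM in HPV+ parental and 2219 CPM in HPV+ resistant cells. LUM averaged 266 CPM in HPV+ parental and 78.4 CPM in HPV+ resistant cells, and DCN 109 and 31.8 CPM. In HPV− cells LUM and DCN averaged at most 0.0748 CPM. The fibroblast receptors PDGFRA and PDGFRB averaged at most 0.176 CPM in any group. The collagen genes COL1A1 and COL1A2 were low in all groups and highest in HPV− resistant cells, at 7.84 and 4.06 CPM. They averaged 6.19 and 0.236 CPM in HPV+ parental and 5.93 and 0.654 CPM in HPV+ resistant cells. In HPV− parental cells they averaged 3.96 and 0.755 CPM. The part of these marker levels in the results was not tested.

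A sequence feature shared by most of the family is the BH3 region, a short helix with which death-promoting members bind the groove of pro-survival members. Its core was searched in the coding sequence of the canonical transcript of each gene (GENCODE 44, GRCh38), in frame on the coding strand, as a leucine codon (CTN, TTA or TTG), any 3 codons, a glycine codon (GGN) and an aspartate codon (GAT or GAC). The core was found in 8 of the 10 genes, against 13.7% of 19658 canonical coding sequences, so a match alone does not mark a family member. BAD held it only with a serine codon (TCN, AGT or AGC) in place of the glycine codon, a form that widened the background to 26.4%, and BCL2L12 held neither form. The 48 bases around each core are shown with the core in capitals, the pro-survival genes first, then the effectors, then the BH3-only genes. All but that of BOK lie within a single exon, exon 1 for MCL1, exon 2 for BCL2 and BCL2L1, exon 4 for BAK1 and BID and exon 3 for BCL2L11, BAD and BIK. The BOK core spans the junction of exons 2 and 3.

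BCL2 (chr18:63318346-63318393, minus strand): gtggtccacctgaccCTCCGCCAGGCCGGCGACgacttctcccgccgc
BCL2L1 (chr20:31721919-31721966, minus strand): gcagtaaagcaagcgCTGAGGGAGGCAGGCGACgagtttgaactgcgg
MCL1 (chr1:150578862-150578909, minus strand): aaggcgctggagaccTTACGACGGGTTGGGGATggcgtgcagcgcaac
BAK1 (chr6:33575384-33575431, minus strand): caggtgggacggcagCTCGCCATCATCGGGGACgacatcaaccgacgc
BOK (within chr2:241559676-241562367, across the junction of exons 2 and 3, plus strand): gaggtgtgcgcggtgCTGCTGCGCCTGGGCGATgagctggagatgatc
BCL2L11 (chr2:111150088-111150135, plus strand): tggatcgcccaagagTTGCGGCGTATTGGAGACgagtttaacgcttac
BID (chr22:17739412-17739459, minus strand): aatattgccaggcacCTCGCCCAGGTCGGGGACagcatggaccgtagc
BAD (chr11:64271619-64271666, minus strand): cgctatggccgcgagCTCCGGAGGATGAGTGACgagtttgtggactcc
BIK (chr22:43127701-43127748, plus strand): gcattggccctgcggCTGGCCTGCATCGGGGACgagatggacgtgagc

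Across the 8 libraries the most abundant member per length was MCL1, with a mean of 118.6 TPM, followed by BAD at 106.1, BCL2L12 at 72.6, BAK1 at 62.2 and BCL2L1 at 52.2 TPM. BID averaged 29.8, BCL2L11 11.5, BOK 7.0, BIK 3.29 and BCL2 2.09 TPM. The order was the same when counts were divided by transcript length. BCL2, the gene that names the family, thus came last.

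**Figure D1:**
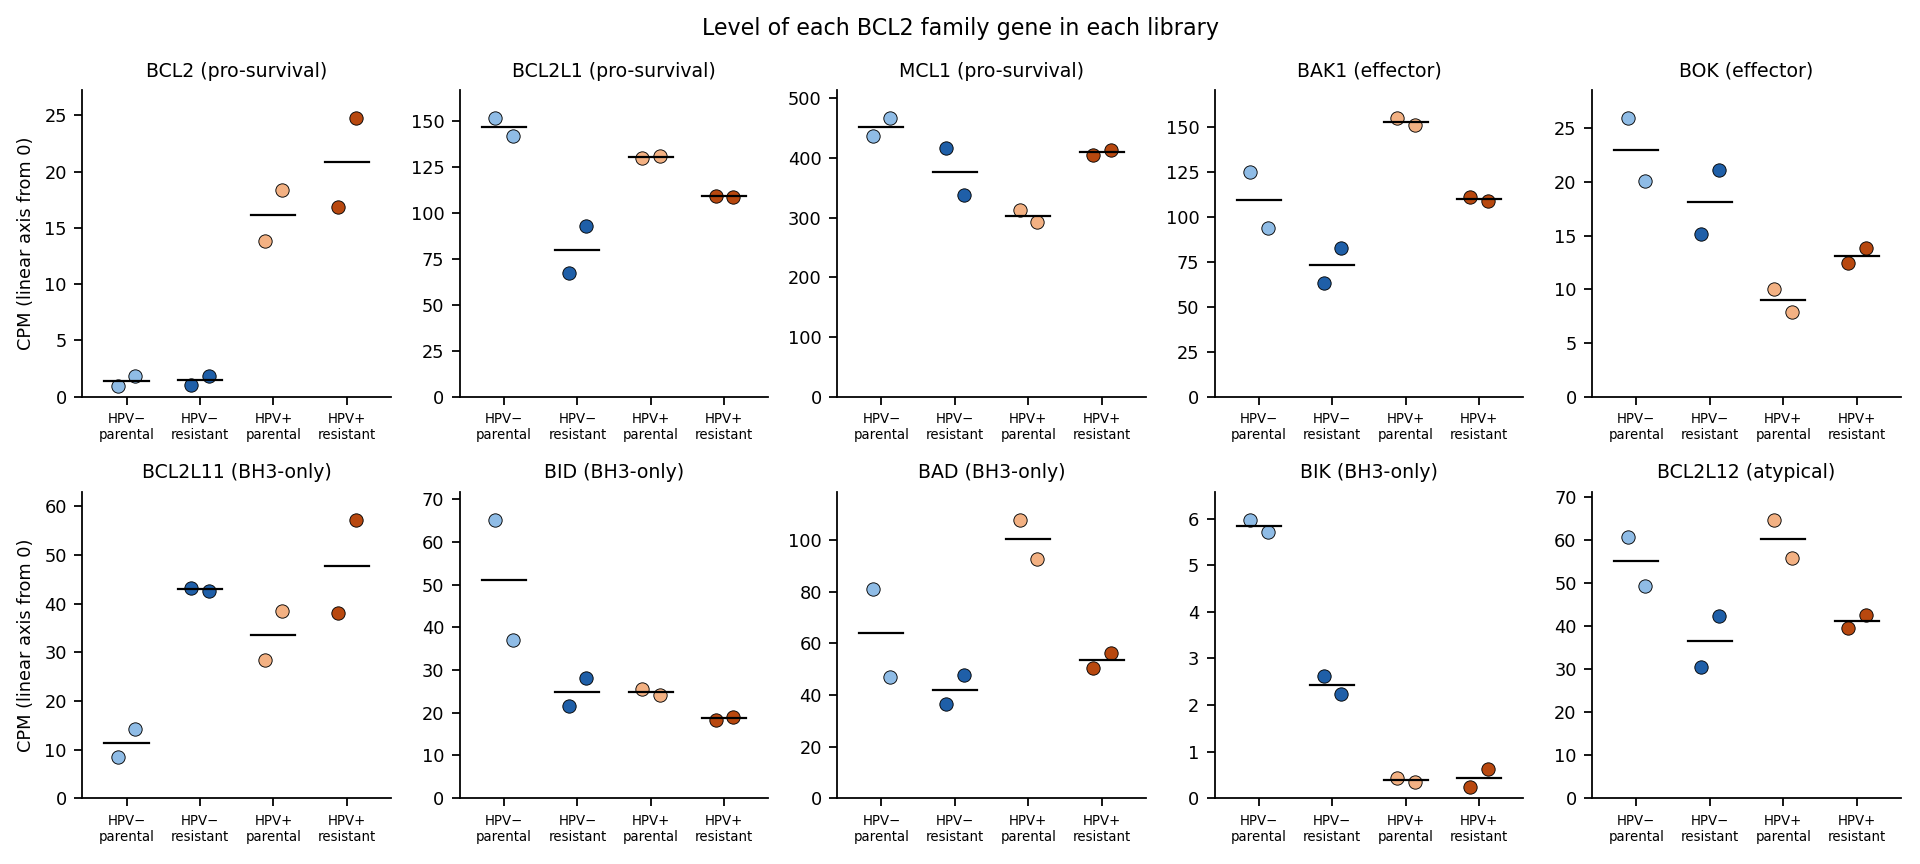
CPM of each of the 10 genes (linear axis from 0) in the 4 groups; each point is 1 of 2 libraries and the line is their mean. BCL2L11 stands at 8.44 and 14.2 CPM in HPV− parental cells and at 42.6 and 43.3 CPM in the HPV− resistant clone, while BCL2 and BIK separate the HPV− from the HPV+ line.

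Whether resistance came with a different balance of death and survival genes was asked first in HPV− cells. In the HPV− resistant clone BCL2L11 was the 1 gene of the 10 that rose, and BID and BIK fell. These 3 of 10 members were called, that is, passed an adjusted p under 0.05 with a log2 fold change beyond 1, against 11.3% of all genes tested. Of these, 1 was higher (6.06% of all genes) and 2 were lower (5.22%). Without a minimum fold, 6 of 10 members passed, against 26.8%, with 1 higher (12.8%) and 5 lower (14.1%). The libraries of the groups did not overlap for 7 members, against 61.2% of all genes. The median log2 fold change was −0.59 over the members and 0.04 over all genes tested. In bulk samples, fewer cells expressing a gene and less RNA per cell cannot be told apart.

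BCL2L11 lies on chromosome 2 of GRCh38 (chr2:111119378-111168444) and encodes BIM, a BH3-only protein that binds every pro-survival member and is set only in part by transcription. It had 8.44 and 14.2 CPM in HPV− parental cells and 43.3 and 42.6 CPM in the HPV− resistant clone. Both resistant libraries lay far above both parental ones. The log2 fold change was 1.92 (SE 0.28, 95% interval 1.29 to 2.55, adjusted p = 0.00143, edgeR's quasi-likelihood test), a 3.78-fold higher level. BCL2L11 was called under all 17 alternatives, with the smallest log2 fold change, 1.3, when the mean length of its transcripts was allowed for.

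BID, which caspase-8 cleaves to link death receptors to mitochondria, lies at chr22:17734138-17774770. It had 65.2 and 36.9 CPM in HPV− parental cells and 21.6 and 28.0 CPM in the resistant clone. The groups did not overlap, but the parental libraries differed widely. The log2 fold change was −1.04 (SE 0.25, adjusted p = 0.0123, edgeR). Without SCC89 replicate 1 it was −0.58 (adjusted p = 0.0523) and without SCC411 replicate 1 it was −0.87 (adjusted p = 0.101), so the call rests on those libraries. It also slipped under the fold threshold with upper-quartile scaling, at −0.97.

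BIK, a BH3-only protein of the endoplasmic reticulum (chr22:43110750-43129712), was sparse. It had 5.98 and 5.73 CPM in HPV− parental cells, from 112 and 127 read pairs, and 2.62 and 2.24 CPM in the resistant clone, from 52 and 45 read pairs. Replicates agreed closely and the groups did not overlap. The log2 fold change was −1.27 (SE 0.42, adjusted p = 0.0498, edgeR). The adjusted p lies at the threshold, and the call was lost in 11 of 17 alternatives, including DESeq2 (adjusted p = 0.0670). It was lost without any 1 of the 4 HPV− libraries (adjusted p from 0.105 to 0.173) and without SCC2 replicate 1 (0.0687) or SCC2 replicate 2 (0.0742), with log2 fold changes of −1.17 to −1.38.

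No pro-survival member was called in the HPV− resistant clone. BCL2L1 (chr20:31664452-31723989) had 151.5 and 141.6 CPM in parental cells and 67.0 and 92.9 CPM in the resistant clone. Both resistant libraries were below both parental ones, with a log2 fold change of −0.87 (SE 0.16, adjusted p = 0.00395, edgeR). Its adjusted p stayed under 0.05 in 17 of 17 alternatives, and without SCC411 replicate 2 the log2 fold change was −1.14 (adjusted p = 0.00327).

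MCL1 (chr1:150560895-150579738), whose short-lived protein is turned over by the proteasome, had 437.4 and 467.0 CPM in HPV− parental and 416.5 and 337.1 CPM in resistant cells. The log2 fold change was −0.26 (95% interval −0.59 to 0.07, adjusted p = 0.215, edgeR). The groups did not overlap, though the nearest libraries were close. BCL2 (chr18:63123346-63320128) was sparse in both groups, with 17 to 41 read pairs per library, at 0.908 and 1.85 CPM in parental and 1.06 and 1.84 CPM in resistant cells. Its interval, −0.87 to 0.98 on the log2 scale, leaves a change of either sign possible, and with transcript length allowed for its log2 fold change was 0.68 (adjusted p = 0.413).

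The effector BAK1 (chr6:33572547-33580293), which forms the pore in the mitochondrial membrane, had 124.7 and 93.7 CPM in HPV− parental and 63.3 and 82.8 CPM in resistant cells. Resistant libraries were lower without overlap, with a log2 fold change of −0.58 (SE 0.18, adjusted p = 0.0347, edgeR). BCL2L12 (chr19:49665142-49673916), reported to restrain apoptosis, had 60.8 and 49.4 CPM in parental and 30.6 and 42.5 CPM in resistant cells, and a log2 fold change of −0.59 (SE 0.18, adjusted p = 0.0369, edgeR). The adjusted p of each of these genes was under 0.05 in 8 of 17 alternatives. Only 10 of 19 annotated BCL2L12 transcripts were in the files, so its level is uncertain. Without SCC89 replicate 1 the log2 fold change of BAK1 was −0.37 (adjusted p = 0.131) and that of BCL2L12 −0.45 (0.120), and without SCC411 replicate 1 they were −0.40 (0.214) and −0.38 (0.230). Without SCC2 replicate 2 or either SCC35 library the adjusted p of both lay between 0.0522 and 0.0599.

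BOK (chr2:241551424-241574131), an effector-like protein, and BAD (chr11:64269830-64284704), a BH3-only protein that 14-3-3 proteins sequester once it is phosphorylated, did not pass the test in HPV− cells. BOK had 26.0 and 20.1 CPM in parental and 15.1 and 21.1 CPM in resistant cells, overlapping ranges (log2 fold change −0.34, adjusted p = 0.283, edgeR). BAD had 81.0 and 47.0 CPM in parental and 36.4 and 47.7 CPM in resistant cells, which also overlapped (−0.61, adjusted p = 0.0932). Without SCC89 replicate 2, the lower parental library, BAD was called at −1.02 (adjusted p = 0.00169).

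**Figure D2:**
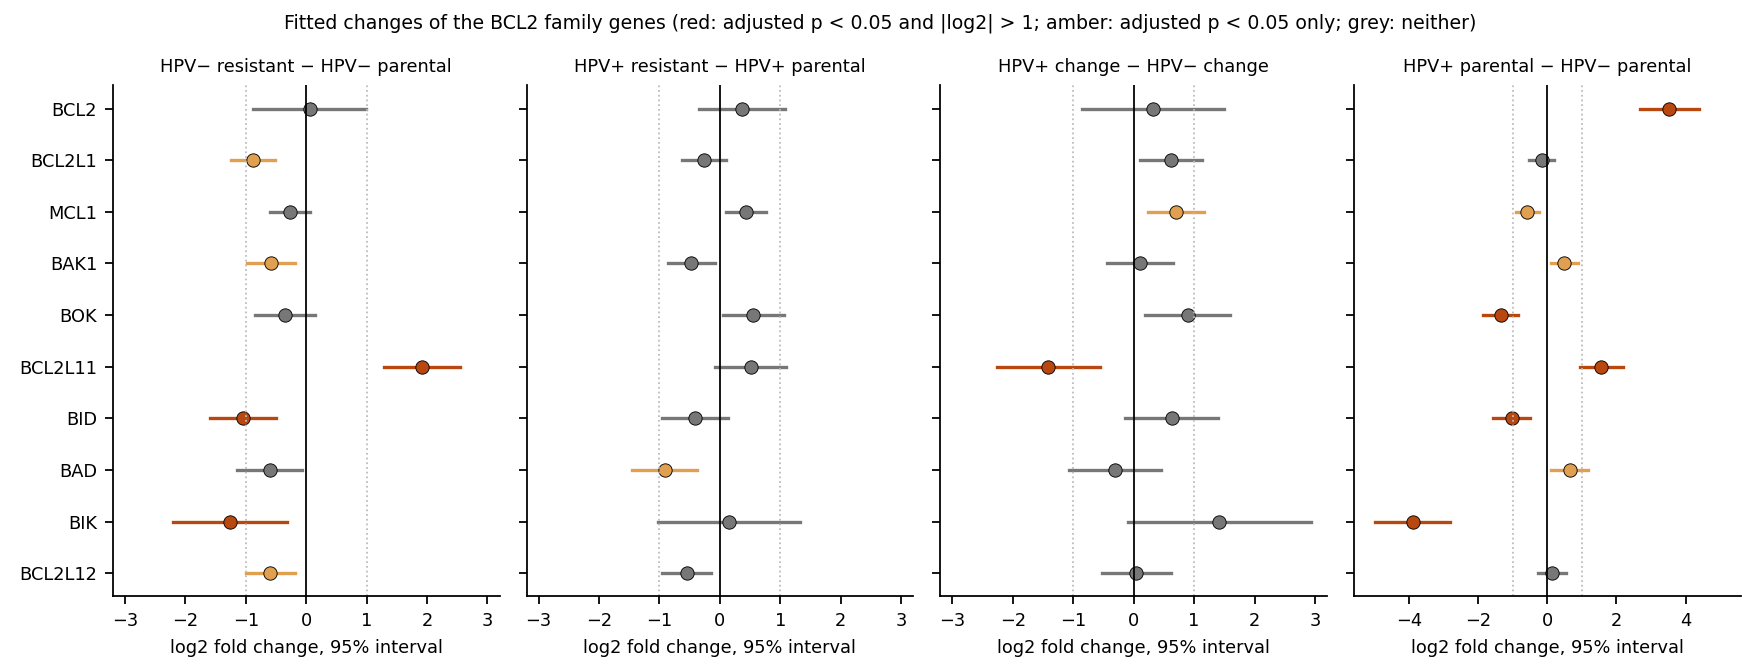
Log2 fold change of each gene with its 95% interval from edgeR in the 4 comparisons (the parental comparison has a wider axis); dotted lines mark a log2 change of 1 in either direction. Red genes were called: BCL2L11, BID and BIK in HPV− cells, none in HPV+ cells, BCL2L11 for the difference between lines, and 5 genes between the parental lines.

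No member was called in the HPV+ resistant clone by edgeR or by DESeq2, against 8% of all genes tested by edgeR. At an adjusted p under 0.05 with any fold, 1 of 10 members passed (18.1% of all genes), a lower one (10.5%). That count depended on the fit, since 7 members passed at any fold when the 4 HPV+ libraries were fitted alone, 4 without SCC89 replicate 1 or without SCC89 replicate 2, and 0 without any 1 SCC2 or SCC35 library. In the fit to all libraries, 5 of 10 had an unadjusted p under 0.05 (33% of all genes). The median log2 fold change of the members was −0.05, and that of all genes tested 0. Libraries of the 2 groups did not overlap for 7 members, against 67.8% of all genes.

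BAD was the member that passed at any fold. It had 107.9 and 92.7 CPM in HPV+ parental cells and 50.3 and 56.4 CPM in the resistant clone, well apart. The log2 fold change was −0.91 (SE 0.24, 95% interval −1.45 to −0.37, adjusted p = 0.0291, edgeR), a 1.88-fold lower level. With any 1 of the 4 HPV+ libraries left out, SCC2 or SCC35, the adjusted p ran from 0.0726 to 0.175 and the log2 fold change from −0.81 to −1.02.

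BCL2L11 in HPV+ cells had 28.5 and 38.5 CPM in parental and 38.1 and 57.3 CPM in resistant libraries. These ranges overlapped, and the log2 fold change was 0.51 (95% interval −0.08 to 1.1, adjusted p = 0.212, edgeR). BID had 25.6 and 24.1 CPM in parental and 18.4 and 19.0 CPM in resistant cells, a log2 fold change of −0.41 (adjusted p = 0.275). BIK was close to absent in both groups, with 11, 9, 6 and 16 read pairs in the 4 HPV+ libraries, and its interval ran from −1.02 to 1.33.

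Among pro-survival members, MCL1 had 312.7 and 292.1 CPM in HPV+ parental and 405.5 and 412.9 CPM in resistant cells. The libraries were tight and did not overlap, but the log2 fold change of 0.44 (SE 0.15) missed the threshold (adjusted p = 0.0665, edgeR). It passed at any fold in 6 of 17 alternatives, while with transcript length allowed for the MCL1 log2 fold change was 0.14 (adjusted p = 0.625). BCL2L1 had 129.7 and 130.8 CPM in parental and 108.9 and 108.7 CPM in resistant cells (−0.26, adjusted p = 0.296). BCL2 had 13.8 and 18.4 CPM in parental and 16.9 and 24.8 CPM in resistant cells (0.37, adjusted p = 0.454), with overlapping ranges. In TPM the BCL2 libraries did not overlap, at 2.12 and 3.02 in parental and 4.71 and 5.6 in resistant cells. With transcript length allowed for the log2 fold change was 0.93 (adjusted p = 0.203, edgeR). Of the resistant TPM, 1.77 and 1.17 belonged to the short transcript BCL2-204, on 11.8 and 7.96 reads. It had 0 reads in the parental libraries, so both length-corrected values rest partly on few reads.

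The remaining HPV+ values pointed down for BAK1 and BCL2L12 and up for BOK, none past the test with all 8 libraries fitted. BAK1 had 154.8 and 150.7 CPM in parental and 110.8 and 108.8 CPM in resistant cells (log2 fold change −0.48, adjusted p = 0.0854, edgeR). BCL2L12 had 64.8 and 55.9 CPM in parental and 39.7 and 42.7 CPM in resistant cells (−0.55, adjusted p = 0.0610). BOK had 10.0 and 7.93 CPM in parental and 12.5 and 13.8 CPM in resistant cells (0.55, adjusted p = 0.119). The adjusted p was under 0.05 in 4 of 17 alternatives for BAK1, 6 for BCL2L12 and 1 for BOK, with 0.00136, 0.00218 and 0.0346 when the HPV+ libraries were fitted alone.

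Whether the lines responded differently was tested as the HPV+ change minus the HPV− change. For 1 of 10 members, BCL2L11, this difference was called, against 11.7% of all genes, and at any fold MCL1 joined it (2 of 10, against 16.7%). The BCL2L11 difference was −1.41 on the log2 scale (SE 0.38, 95% interval −2.26 to −0.56, adjusted p = 0.0328, edgeR), with a change of 1.92 in the HPV− and 0.51 in the HPV+ line, the latter not past the test. The call was lost without SCC89 replicate 1 (adjusted p = 0.0531), SCC411 replicate 1 (0.0849) or 2 (0.0812), SCC2 replicate 2 (0.116) or SCC35 replicate 1 (0.0917), and with transcript length allowed for, when the difference was −0.68 (0.147).

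For MCL1 the difference was 0.70 (SE 0.21, adjusted p = 0.0452, edgeR), with lower values in the HPV− and higher values in the HPV+ resistant clone. It passed in 8 of 16 alternatives. It did not pass without SCC411 replicate 2 (adjusted p = 0.117), SCC2 replicate 1 (0.117) or 2 (0.192), or SCC35 replicate 1 (0.119) or 2 (0.134), nor with transcript length allowed for (difference 0.41, adjusted p = 0.295). BOK (0.89, adjusted p = 0.0820), BCL2L1 (0.61, 0.0962), BIK (1.42, 0.185) and BID (0.63, 0.253) did not pass. Without SCC89 replicate 2 the differences for BOK (1.13, adjusted p = 0.0319) and BID (1.05, 0.0127) were called.

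Between HPV+ and HPV− parental cells 5 of 10 members were called, against 37% of all genes tested. In HPV+ cells 2 were higher (17.7% of all genes) and 3 lower (19.3%). At any fold 8 of 10 passed, against 58%. These comparisons share their parental libraries with those above.

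The largest gaps were in BCL2 and BIK. BCL2 had 0.908 and 1.85 CPM in HPV− parental and 13.8 and 18.4 CPM in HPV+ parental cells, a log2 fold change of 3.52 (SE 0.38, adjusted p = 2.69e-05, edgeR) or an 11.5-fold higher level. BIK went the other way, from 5.98 and 5.73 CPM in HPV− to 0.432 and 0.340 CPM in HPV+ parental cells, a log2 fold change of −3.91 (SE 0.49, adjusted p = 6.80e-05) or 15-fold lower. Both calls held in 17 of 17 alternatives.

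BCL2L11 was 2.95-fold higher in HPV+ than in HPV− parental cells (log2 fold change 1.56, SE 0.28, adjusted p = 0.000883, edgeR). Ordered by group means its level was highest in HPV+ resistant cells (47.7 CPM), then HPV− resistant (42.9), HPV+ parental (33.5) and HPV− parental cells (11.3). The HPV+ resistant libraries overlapped those of the HPV− resistant and the HPV+ parental group, whereas HPV− parental cells stood below all others. BOK was lower in HPV+ parental cells (−1.36, SE 0.23, adjusted p = 0.000493), as was BID (−1.04, SE 0.25, adjusted p = 0.00445). The BID change was −0.58 without SCC89 replicate 1 and −0.99 without SCC2 replicate 2, under the fold threshold.

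At smaller folds MCL1 was lower in HPV+ parental cells (−0.58, adjusted p = 0.00656, edgeR), and BAK1 (0.48, 0.0355) and BAD (0.65, 0.0409) were higher. The adjusted p was under 0.05 in 15, 9 and 10 of 17 alternatives for MCL1, BAK1 and BAD. Without SCC2 replicate 2 the adjusted p of MCL1 was 0.0725. Without SCC89 replicate 2 the log2 fold change of BAK1 was 0.25 (adjusted p = 0.225) and that of BAD 0.26 (0.243), and without SCC89 replicate 1 BAD was called at 1.08 (0.000536). Without any 1 of the SCC2 or SCC35 libraries the adjusted p lay between 0.0554 and 0.153 for BAK1 and between 0.0535 and 0.211 for BAD. BCL2L1 (−0.17, adjusted p = 0.394) and BCL2L12 (0.13, adjusted p = 0.557) did not pass.

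Because the proteins act by binding one another, their proportions were also described, with no test. In the HPV− line the 10 genes summed to 479.8 and 452.2 TPM for the parental libraries and to 339.8 and 378.8 TPM for the clone. In the HPV+ line the sums were 584.6 and 551.1 TPM for the parental libraries and 454.6 and 482.1 TPM for the clone. The total was lower in both clones than in their parents. Pro-survival genes made up 33.6 and 42.8% of it for HPV− parental libraries against 44.3 and 37.3% for the HPV− clone, which overlapped. Their share was 31.0 and 30.8% for HPV+ parental libraries against 41.8 and 40.4% for the HPV+ clone, which did not overlap.

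Pro-survival TPM per BH3-only TPM was 0.850 and 0.839 for HPV+ parental libraries against 1.49 and 1.36 for the HPV+ clone. BH3-only TPM here covers BID, BCL2L11, BAD and BIK alone, and BAD held its largest part in every library. For the HPV− line the same ratio was 0.919 and 1.54 before and 1.49 and 1.21 after selection, overlapping. BCL2L11 per 100 MCL1 TPM was 3.0 and 3.23 for HPV− parental libraries against 8.99 and 9.68 for the HPV− clone. For the HPV+ line it was 8.73 and 12.9 in parental libraries against 13.3 and 16.4 in the clone. The resistant clone was above its parent in both lines by this measure. In the HPV+ line, however, the nearest libraries were close, at 12.9 and 13.3, and BCL2L11 overlapped in CPM. Transcript BCL2L11-203 was given 6.51 of the 17.5 BCL2L11 TPM in SCC35 replicate 1, on only 30.6 reads. The HPV+ gap therefore rests partly on few reads.

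**Figure D3:**
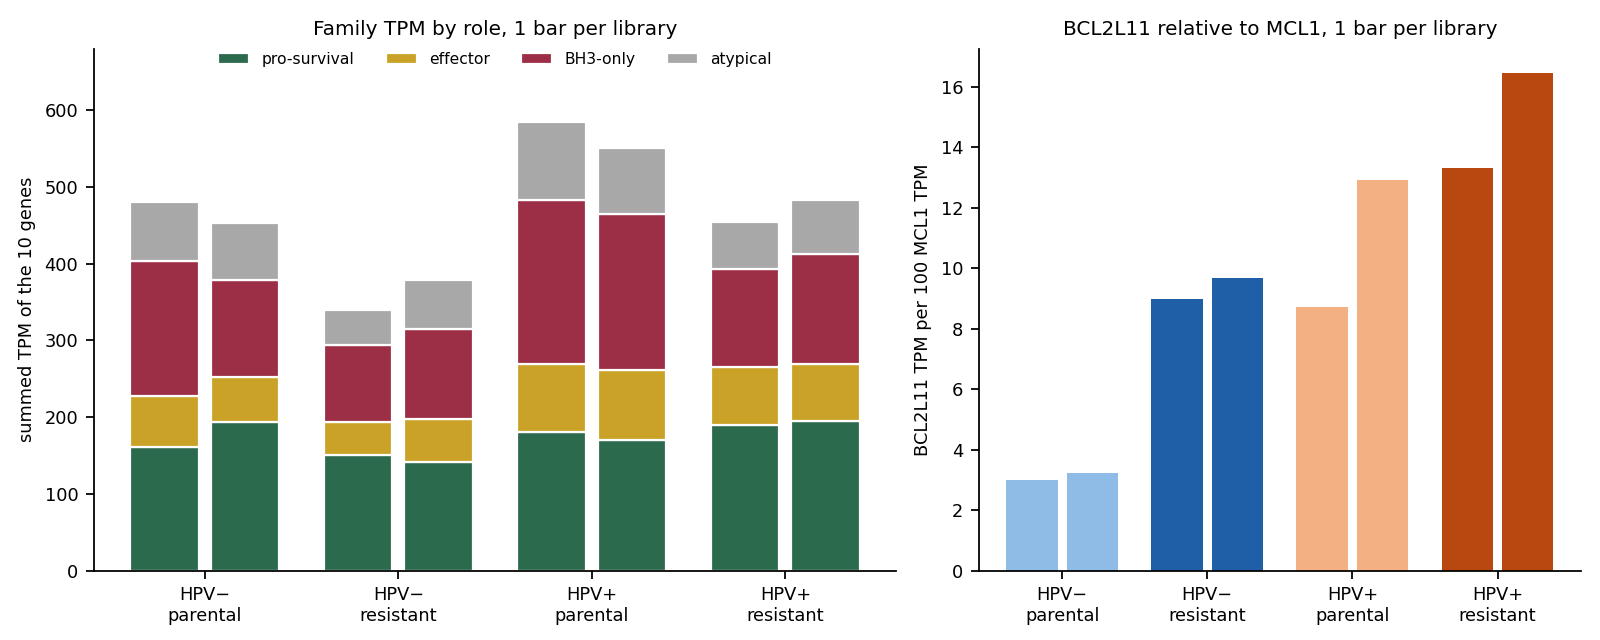
Left, summed TPM of the 10 genes by role, and right, BCL2L11 TPM per 100 MCL1 TPM; each bar is 1 library, in pairs by group, with both axes from 0. BH3-only TPM, here BID, BCL2L11, BAD and BIK alone, is lower in both clones than in their parents. BCL2L11 relative to MCL1 is lowest in HPV− parental cells, at 3.0 and 3.23.

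Several members are spliced into forms with different or opposite activity, and the shares of TPM given to each form were described, again with no test. BCL2L1 was almost all the long, pro-survival BCL-XL form (coding length 699 bases, 88.4 to 97.1% of TPM per library), and the short death-promoting form (510 bases) held 2.75 to 10.8%. The full-length MCL1 form (1050 bases) held 81.9 to 92.6%. The full-length form of BCL2 (717 bases) held 90.7 and 89.3% for HPV+ parental libraries against 46.3 and 65.1% for the HPV+ clone, where a form with a coding length of 138 bases was given 37.6 and 21.0% of TPM on 11.8 and 7.96 reads. The 585-base form of BID, which encodes the full protein, held 45.3 and 54.3% for HPV− parental libraries against 64.5 and 72.9% for the HPV− clone, and 47.9 to 70.3% in HPV+ libraries.

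For BCL2L11 the share of transcript BCL2L11-204 (594 bases, the extra-long form) was 45.9 and 63.8% for HPV− parental libraries against 86.7 and 100% for the HPV− clone. It was 54.8 and 59.5% for HPV+ parental libraries against 47.5 and 60.1% for the HPV+ clone. The other models rest on few reads, with BCL2L11-203 (coding length 876 bases) at 26 reads and 44.1% of TPM in 1 HPV+ parental library. Allowing for length lowered the HPV− log2 fold change from 1.92 to 1.3. In TPM, BCL2L11 was at 3.14 and 4.26 for HPV− parental libraries and at 10.7 and 9.46 for the HPV− clone, still well apart.

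**Figure D4:**
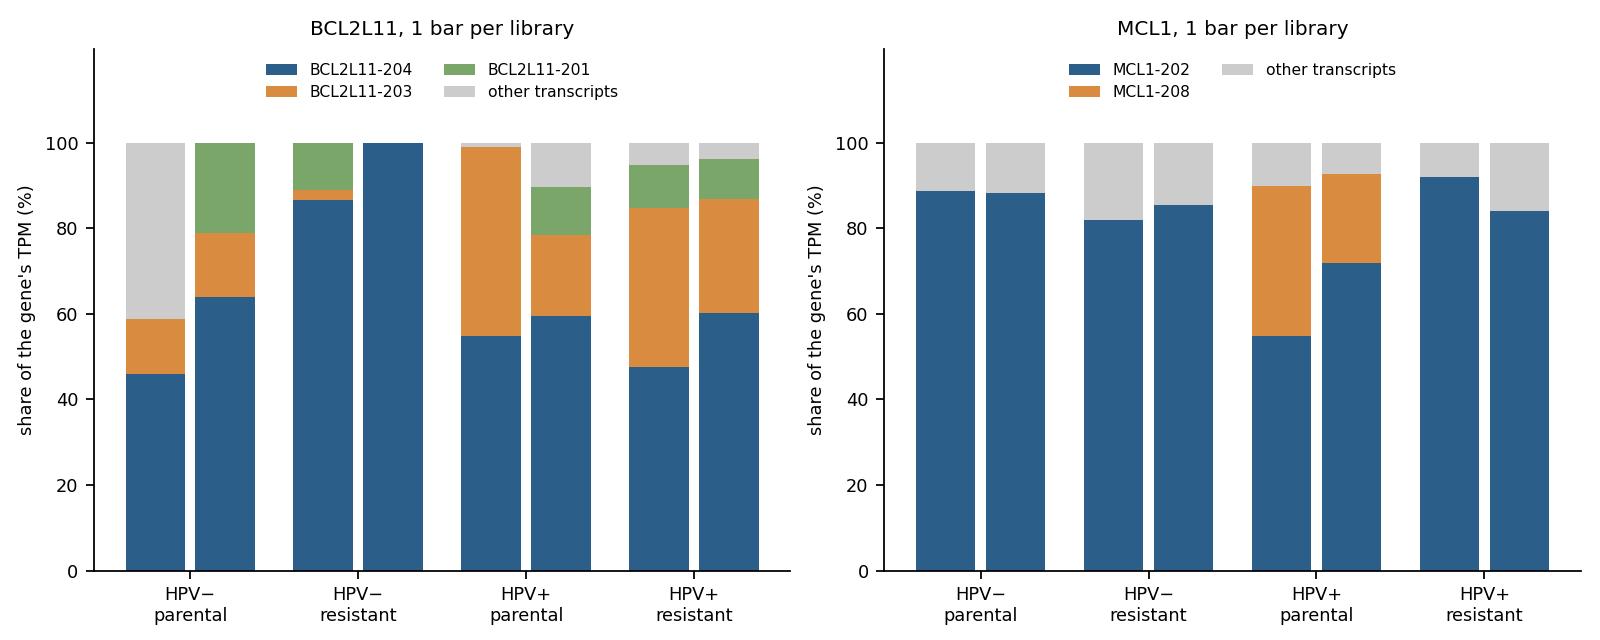
Share of the TPM of BCL2L11 (left) and MCL1 (right) held by each named transcript; each bar is 1 library, in pairs by group. BCL2L11-204 fills 86.7 and 100% in the HPV− resistant clone, and MCL1-208 appears in the HPV+ parental libraries at 35.0 and 20.7%.

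MCL1 showed a transcript difference that bears on its gene-level values. MCL1-208 shares the coding sequence of the main MCL1 transcript but ends in another exon of 116 bases (chr1:150563102-150563217, minus strand). It was given 1052 and 518 reads in the HPV+ parental libraries, 35.0 and 20.7% of MCL1 TPM, and 0 in the other 6. In TPM, MCL1 was at 122.9 and 106.1 for HPV+ parental libraries against 131.5 and 134.0 for the HPV+ clone and 104.7 and 132.1 for HPV− parental libraries, and all these ranges but the first pair overlapped. With transcript length allowed for, the parental difference of −0.58 became −0.24 (adjusted p = 0.238, edgeR), so the lower level of MCL1 in HPV+ parental cells passed the test on reads but not on length-corrected values.

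Whether a member moved with the genes beside it on the chromosome was described from the 10 nearest tested genes on each side. BCL2L1 was, in the HPV− resistant clone, below all 20 of its neighbours, whose median log2 fold change was 0.29 against its own −0.87. BCL2L11 was above 17 of 20 neighbours (median 0.07) and BIK was below 18 of 20 (median −0.03). BID lay among neighbours with a median of −0.35, of which 7 of 20 were lower than BID itself.

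In the HPV+ resistant clone BAD, at −0.91, lay in a stretch of 0.775 Mb whose neighbours had a median of −0.74, with 10 of 20 lower and 0 higher at an adjusted p under 0.05. BAD is also short and rich in GC, and the tested genes in its decile of GC content, 1522 in number, had a median of −0.36. Those in its decile of transcript length had a median of −0.29. BOK is in the same decile of GC content and had a value of 0.55. BCL2 at 0.37 matched its neighbours at 0.37. The part of position, GC content and length in these values was not tested.

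Between the parental lines the neighbours of BCL2L1 had a median of −1.29 and 18 of 20 were lower in HPV+ cells, while BCL2L1 itself was at −0.17. BCL2 at 3.52 and BIK at −3.91 were each beyond 18 of 20 neighbours, whose medians were −0.24 and 0.09.

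**Figure D5:**
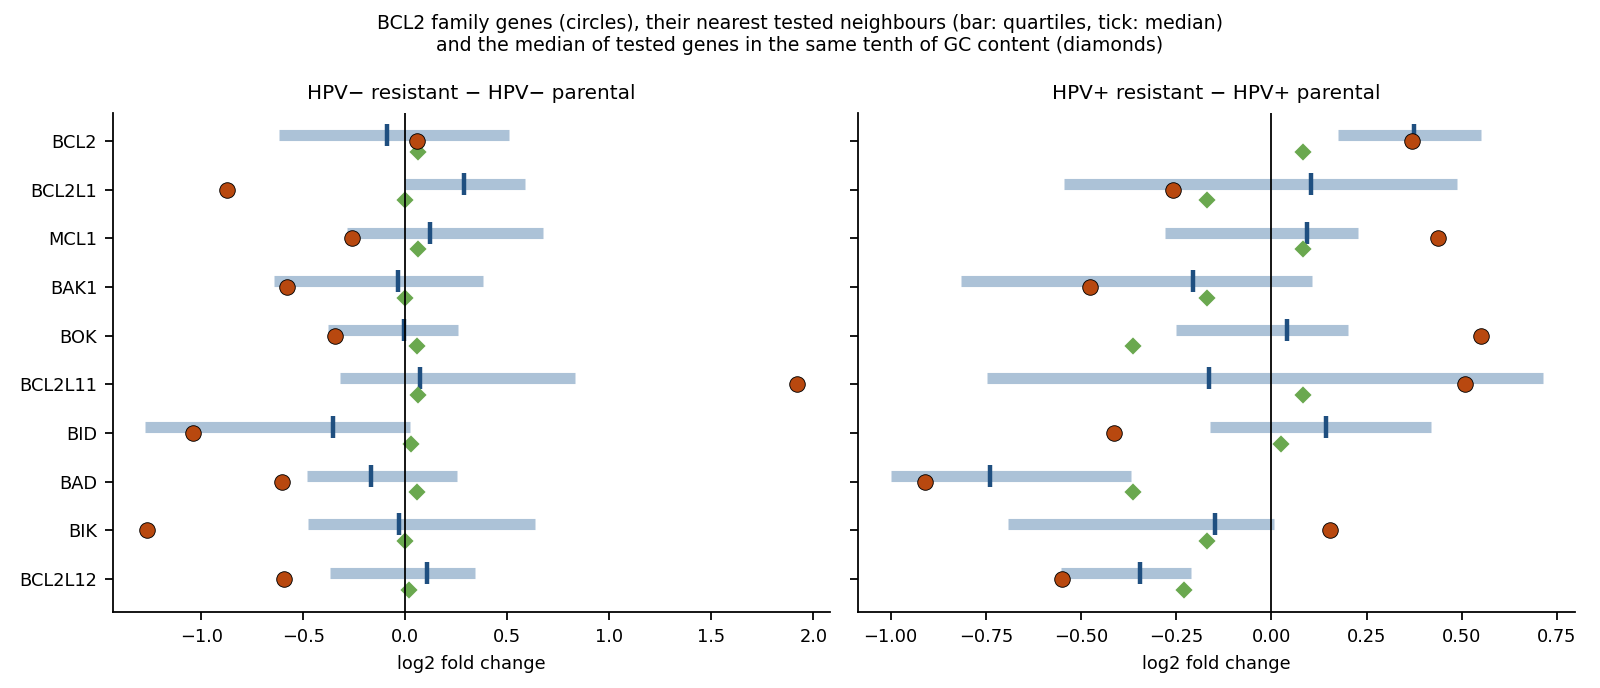
Log2 fold change of each gene (circle), the quartiles and median of its 20 nearest tested genes (16 for BOK; bar and tick) and the median of tested genes in its decile of GC content (diamond), for the HPV− (left) and HPV+ (right) clones. BCL2L1 and BCL2L11 stand away from their neighbours in HPV− cells, whereas BAD at −0.91 lies within the quartiles of its neighbours in HPV+ cells.

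Other members of the family and its pathway gave a wider view. Of 13 further BCL2 family genes, 11 were tested. Of these, 2 were called higher and 1 lower in the HPV− resistant clone, where 6.06% of all genes were called higher and 5.22% lower. BMF, a BH3-only gene linked to the cytoskeleton, rose from a mean of 0.443 to 6.47 CPM (log2 fold change 3.86, SE 0.61, adjusted p = 0.00165, edgeR), and HRK, another BH3-only gene, from 0.583 to 1.65 CPM (1.49, adjusted p = 0.00644). BNIP3, which acts in mitophagy, fell from 173 to 83.4 CPM (−1.06, adjusted p = 0.00360). The BMF libraries of the clone differed widely, at 3.17 and 9.77 CPM, but both lay above the parental 0.481 and 0.406 CPM, and the call held in 16 of 16 alternatives that tested it. Without SCC411 replicate 1 the BNIP3 change was −0.78, under the fold threshold, and the call was also lost with upper-quartile factors. The HRK call was lost when the HPV− libraries were fitted alone (adjusted p = 0.0631, edgeR). The list's median log2 fold change was −0.26, against 0.04 over all genes.

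In the HPV+ resistant clone BNIP3 instead rose, from 7.11 to 15.6 CPM (1.13, adjusted p = 0.00596, edgeR), and it was the 1 called gene of the list, although not without SCC2 replicate 1 (adjusted p = 0.0713). That is 1 of 11 tested genes, against 8% of all genes. The list's median was 0.44 there, against 0 over all genes. The effector BAX was at −0.61 (adjusted p = 0.0293, edgeR) in the HPV− and −0.79 (0.0145) in the HPV+ clone, under the fold threshold in both. Its adjusted p was under 0.05 in 13 of 17 alternatives in each clone. Across alternatives its log2 fold change ran from −0.85 to −0.42 in the HPV− and from −0.92 to −0.71 in the HPV+ clone. Of the BH3-only genes of this list, PMAIP1 (0.68, adjusted p = 0.00939, edgeR) and HRK (0.84, 0.0260) were higher in the HPV+ clone, also under the fold threshold. Their adjusted p was under 0.05 in 14 and 13 of 17 alternatives. BMF (−1.94, adjusted p = 0.0720) and BBC3 (−0.07, 0.897) did not pass there. The difference between lines was called for BMF (−5.80, adjusted p = 0.00231) and BNIP3 (2.19, 0.000949). Over all genes it was called for 11.7%. BCL2A1 had 2 read pairs in all libraries together.

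Downstream of the mitochondria, 12 of 12 genes for the apoptosome, caspases and their inhibitors were tested, with 1 called lower in the HPV− and none in the HPV+ clone, where 11.3 and 8% of all genes were called. Their medians were 0.12 and 0.03, against 0.04 and 0 over all genes. CYCS, which encodes cytochrome c, fell from 379 to 156 CPM in HPV− cells (log2 fold change −1.28, SE 0.15, adjusted p = 0.000349, edgeR), a call kept in 17 of 17 alternatives.

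The death receptor arm, whose signal reaches mitochondria through BID, had 13 of 14 genes tested. Its medians were 0.18 in the HPV− and −0.44 in the HPV+ clone, against 0.04 and 0 over all genes. In the HPV− clone FAS (1.20, adjusted p = 0.00576, edgeR) and TNFSF10, the gene for the ligand TRAIL (1.65, 0.00844), rose. These 2 of 13 were called higher and none lower, against 6.06 and 5.22% of all genes. At any fold 3 were higher and 2 lower, against 12.8 and 14.1% of all genes. The receptor genes TNFRSF10A (−0.56, adjusted p = 0.0228, edgeR) and TNFRSF10B (−0.52, 0.0256) were the lower ones. TNFRSF1A (0.72, 0.00315) was higher. CASP10 fell in the HPV+ clone (−1.02, adjusted p = 0.0188), the 1 gene of 13 called there, against 8% of all genes. The TNFSF10 call was lost without SCC411 replicate 1 and with transcript length allowed for. The CASP10 call held in 9 of 17 alternatives and was lost without any 1 of the 4 HPV+ libraries, SCC2 or SCC35. For CASP10 (−1.71, adjusted p = 0.00732) and TNFRSF1A, a TNF receptor (−1.27, 0.00148), the difference between lines was called and kept in 16 of 16 alternatives. Over all genes that difference was called for 11.7%.

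Of 15 tested genes for partners and turnover of BCL2 proteins, BAG1, a co-chaperone that binds BCL2, fell in both clones (−1.52, adjusted p = 0.000358 in HPV− and −1.16, 0.00174 in HPV+ cells, edgeR). YWHAZ, a 14-3-3 gene, fell in HPV− cells (−1.15, adjusted p = 0.00164). Both BAG1 calls held in 17 of 17 alternatives. Without SCC89 replicate 2 YWHAZ did not reach the fold threshold, at −0.996. No gene of this list was called higher in either clone. The 2 called in the HPV− and 1 in the HPV+ clone stood against 11.3 and 8% of all genes. The list's median log2 fold changes were −0.26 and −0.05, against 0.04 and 0 over all genes.

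All 11 transcription factors known to act on these genes were tested. In the HPV− clone TP73 (2.32, adjusted p = 1.75e-05, edgeR) and FOXO1, an activator of BCL2L11 (1.6, 0.000727), rose, and E2F1 (−1.06, 0.00479) and ATF4 (−1.08, 0.00784) fell. FOXO1 also rose in the HPV+ clone (1.01, adjusted p = 0.00788), as did DDIT3 (1.01, 0.00636), while TP73 fell (−1.28, 0.000413). The difference between lines was called for TP73 (−3.59, adjusted p = 6.21e-06) and TP63 (1.15, 0.00577), each in 16 of 16 alternatives. The TP73 calls held in 17 of 17 alternatives in both clones, as did that of FOXO1 in HPV− cells. Other calls were lost without a single library. These were E2F1 (−0.77) and ATF4 (−0.64) without SCC89 replicate 1, both also without SCC411 replicate 1, DDIT3 and FOXO1 in HPV+ cells without SCC2 replicate 1 or SCC35 replicate 2, and FOXO1 there also without SCC89 replicate 2. FOXO1 in HPV+ cells also fell under the fold threshold with a replicate block (0.996, adjusted p = 0.00851) and with no filter on low counts (0.991, 0.000484). Of the 11 factors, 2 were called higher and 2 lower in the HPV− clone, against 6.06 and 5.22% of all genes. In the HPV+ clone 2 were called higher and 1 lower, against 8% of all genes in either direction. The difference between lines was called for 11.7% of all genes. The list's medians were 0.31 and 0.05, against 0.04 and 0 over all genes.

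Between the parental lines the same lists differed in single genes. HRK, at 0.583 CPM in HPV− and 12.4 CPM in HPV+ parental cells (log2 fold change 4.39, adjusted p = 6.35e-07, edgeR), and BBC3, which encodes PUMA (1.88, 0.000433), were higher in HPV+ cells. PMAIP1, which encodes NOXA (log2 fold change −1.3, adjusted p = 2.32e-05), and BNIP3 (−4.61, 1.01e-07) were lower. BCL2L10, a pro-survival gene, had 6.78 and 4.82 CPM in HPV− parental libraries and 0 read pairs in both HPV+ parental libraries. FADD, the adaptor of death receptors, was at 467 CPM in HPV− and 27.4 CPM in HPV+ parental cells (−4.09, adjusted p = 5.07e-08), and CASP8 was lower as well (−1.17, 0.000282). BAG1 was higher in HPV+ cells (2.85, adjusted p = 4.79e-07). Each of these tested differences was called in every alternative that tested the gene.

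Genes whose log2 CPM closely followed BCL2L11 over the 8 libraries, among 9839 genes that averaged 10 CPM or more, included ENTPD4 (Pearson's r 0.979), PSIP1 (0.978) and APPBP2 (0.977). Those closest to BAD were NDUFA13 (0.992), MRPL54 (0.989), RASSF7 (0.988) and RNF220 (0.984). These correlations describe 8 libraries from 4 groups, which share their group differences.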

How the data were processed

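RNA was sequenced as polyA libraries from 4 groups of 2 libraries. The authors quantified paired-end reads with Salmon against GRCh38 (both named in the submitters' processing notes, with Salmon's version and annotation release not given in the sources used here) and deposited 1 file per library. Per the file headers these hold estimated counts per transcript, not normalized, and TPM per transcript, scaled for effective length and depth within the library. Here 172550 of 187432 transcripts were matched by ID to GENCODE 44, and estimated counts were summed per gene and rounded. Unmatched transcripts, with 4.33 to 5.13% of counts, were left out. The 10 genes are complete in the files except BCL2L12.

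Totals of 20250246 to 27341284 read pairs limit precision for BIK and BCL2. All 8 libraries entered 1 fit with edgeR 4.0.16 (R 4.3.3, limma 3.58.1) with TMM scaling, genes kept by filterByExpr's defaults, and quasi-likelihood testing with the robust option (common dispersion 0.0326, 4 residual degrees of freedom). Benjamini-Hochberg adjustment covered all 15221 genes. A call followed the study in requiring an adjusted p below 0.05 together with a log2 fold change past 1 in either direction. The study used DESeq2, which was run here (1.42.0) as an alternative. The others were upper-quartile or RLE factors, transcript length as an offset, no filter on low counts, at least 5 CPM in 2 libraries, protein-coding genes only, the 4 libraries of a comparison, a replicate block, no minimum fold, and each library left out. The test was tried on simulated counts.

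Levels, shares of TPM, positions and coding sequences came from the deposited values and GENCODE 44 and were described without tests (Python 3.11.15, pandas 2.3.3, matplotlib 3.10.9). The comparison by GC content and length was added after values were seen. The genes and lists were chosen with earlier results of these data known. Named were the 10 genes, up to 3 called genes per list and direction, and the 4 genes most correlated with the member of smallest p in each clone. Not every called list gene of the interaction and the parental comparison is printed, and some genes that the rule names are not reported here. BAX, BCL2A1 and, in the HPV+ clone, PMAIP1, HRK, BMF and BBC3 were named after their values were seen. So were TNFRSF10A, TNFRSF10B and TNFRSF1A in the HPV− clone. The alternatives were applied to list genes after the data were seen. Protein, R-loop and viability experiments were not analysed here.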

Additional observations from a re-analysis of the deposited data

Results flagged for a closer look

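The change on resistance differed between the lines at an adjusted p under 0.05, by the interaction test over all genes, for BCL2L11 and MCL1. For BCL2L11 the log2 fold change in the HPV+ line minus that in the HPV− line was −1.41 (SE 0.38, adjusted p = 0.0328, edgeR). For MCL1 it was 0.70 (SE 0.21, adjusted p = 0.0452, edgeR), under the fold threshold. The BCL2L11 call was kept in 10 of 16 alternatives, and MCL1 passed at any fold in 8 of 16. With transcript length allowed for, the differences were −0.68 and 0.41 and neither passed (adjusted p = 0.147 and 0.295). No group was large enough for a test of outlying libraries.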

How the results depend on the processing

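In the HPV− clone 3 members were called, 6 with no minimum fold, 1 with upper-quartile factors, and 1 to 3 with each library left out in turn. In the HPV+ clone 0 were called, 1 with no minimum fold and 0 to 0 with each library left out. For the difference between lines 1 was called, 2 with no minimum fold, 0 with transcript length allowed for and 0 to 3 with each library left out, and between the parental lines 5, 8 with no minimum fold and 4 to 5 with each library left out. DESeq2 called 2, 0, 1 and 5. At any fold, members passing across alternatives numbered 2 to 6, 0 to 7, 0 to 5 and 5 to 8 in the HPV− clone, the HPV+ clone, the difference and the parental comparison, and the 7 came from the HPV+ libraries fitted alone. Values that changed sign did so with a library left out and belonged to members that did not pass the test in that comparison. With each library left out, BCL2 ran from −0.41 to 0.60 in the HPV− clone (−0.36 without SCC89 replicate 1), BIK from −0.69 to 0.67 in the HPV+ clone (−0.01 without SCC2 replicate 2), and BCL2L12 from −0.055 to 0.27 between the parental lines (−0.00056 without SCC2 replicate 1). For the difference between lines the ranges were −0.10 to 0.36 for BAK1 (−0.08 without SCC411 replicate 1), −0.18 to 0.30 for BCL2L12 (−0.10, −0.06 and −0.01 without SCC89 replicate 1, SCC2 replicate 2 and SCC35 replicate 2), −0.24 to 0.77 for BCL2 (−0.03 without SCC411 replicate 1) and −0.73 to 0.10 for BAD. Apart from the length offset and the minimum fold, the cause was not tested. Whether replicate numbers pair the libraries is not stated. Deviations of same-numbered libraries correlated at −0.0739 between the HPV− groups and −0.015 between the HPV+ groups. Between the parental groups the correlation was 0.142, the highest of 6 group pairs. With 2 libraries per group these values cannot decide whether libraries were paired. With the replicate block 2, 0, 1 and 5 members were called in the HPV− clone, the HPV+ clone, the difference and the parental comparison. Where leaving out a library leaves a group with 1, that library is assumed to vary like the other groups. The order of the members by level per length did not depend on the length correction tried. At this depth BIK in HPV+ cells, with 6 to 16 read pairs, allows no statement about its change.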
